A study of Mus musculus with 6 samples.

Results

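The clustered replication histone genes are the genes that supply histones for newly made DNA, and they were taken as every symbol beginning with Hist1h, Hist2h, Hist3h or Hist4h in the count tables. There were 68 such genes among 24411 symbols, of which 6 encode the linker histone H1, 18 encode H2A, 19 H2B, 12 H3 and 13 H4. Counts were found for 58 of them, and 10 had 0 counts in all libraries. After the filter on low counts, 37 were tested among 10133 genes in all. RNA came from primary microglia (PM), shaken off mixed glial cultures of the pooled brains of neonatal ICR mice. There were 3 libraries of PM given GSK-J4 (10 μM), an inhibitor of the H3K27 demethylase JMJD3, and 3 libraries of PM given GSK-J4 (10 μM) with LPS (10 ng/ml), a ligand of TLR4, each at 4-h. All 6 libraries thus carried GSK-J4, and the comparison shows how the histone genes differed with LPS in its presence. Untreated and LPS-only PM were not analysed here. The study's methods give the replicates as independent samples, without saying whether each had its own pool of animals.

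Histone proteins pack DNA into nucleosomes, in which DNA winds around H2A, H2B, H3 and H4, while H1 binds the DNA between nucleosomes. Replication histone genes are transcribed mainly in S phase, lack introns in nearly all cases, and lie in clusters. Their mRNAs typically end not in a poly(A) tail but in a short stem-loop, which is bound by the protein SLBP. Because rRNA was depleted and poly(A) RNA was not selected, such mRNAs could enter these libraries.

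The stem-loop is shown first because it is the shared end of these mRNAs. A 16-base motif, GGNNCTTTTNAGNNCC, was sought on the sense strand of all GENCODE transcript models. It was found, always after the stop codon, in 44 of the 68 members (64.7%), or in 44 of the 54 (81.5%) whose model runs past the stop codon, against 89 of all 55341 genes (0.161%). The 2 members that passed the test of the comparison, 2 other H4 genes and examples of each other class (the most counted H1 gene, the H2A and H2B genes with the lowest fold change, and the H3 gene with the highest) are given below with the motif in capitals, 5′ to 3′, on mm10.
Hist2h4, chr3:96262939-96262954, - strand: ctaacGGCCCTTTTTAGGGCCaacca
Hist1h4i, chr13:22040966-22040981, - strand: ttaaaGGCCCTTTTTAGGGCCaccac
Hist1h4b, chr13:23757366-23757381, + strand: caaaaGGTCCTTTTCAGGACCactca
Hist1h4d, chr13:23581950-23581965, + strand: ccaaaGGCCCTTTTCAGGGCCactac
Hist1h1c, chr13:23739512-23739527, + strand: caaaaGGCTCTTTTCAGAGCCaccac
Hist1h2ab, chr13:23751572-23751587, + strand: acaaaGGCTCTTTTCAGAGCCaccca
Hist1h2bb, chr13:23747203-23747218, + strand: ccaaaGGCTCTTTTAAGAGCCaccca
Hist1h3f, chr13:23544932-23544947, + strand: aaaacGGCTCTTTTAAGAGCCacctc
Each of these lies after the coding sequence, in the untranslated end of the mRNA. The motif began and ended with GGCCC and GGGCC or with GGTCC and GGACC in the H4 genes, and with GGCTC and GAGCC throughout the other classes. Among the 44 members with the motif, only Hist2h4 and Hist1h4i had the letters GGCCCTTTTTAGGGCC. In the 14 members whose model ends at the stop codon these letters could not be read. A link between the letters and the fold changes was not tested. In Hist1h1c the motif ended 4 bases before the RefSeq end of the gene, in Hist2h4 5 bases and in Hist1h4i 6 bases before it.

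Replication histone promoters carry elements known to differ between classes, and 3 of them are shown as examples, from Hist1h4i, which passed the test, the H1 gene with the highest level and the tested H2B gene with the lowest fold change. Hist2h4 has no entry in the promoter table. The sequences are from RefSeq, on GRCm38.p6, 250 bases before to 50 after the start. The capitals mark matches on either strand to the octamer ATTTGCAT, to the H1 element AAACACA and to the TATA box TATAAA. They also mark the H4 element GGTCCG and the CCAAT box.
Hist1h4i, chr13:22041313-22041612, - strand: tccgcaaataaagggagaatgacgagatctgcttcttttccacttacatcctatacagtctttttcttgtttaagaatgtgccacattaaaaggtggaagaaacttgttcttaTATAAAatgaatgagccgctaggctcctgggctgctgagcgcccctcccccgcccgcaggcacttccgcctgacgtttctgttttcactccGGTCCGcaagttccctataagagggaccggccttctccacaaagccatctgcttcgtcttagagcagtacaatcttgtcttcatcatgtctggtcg
Hist1h1c, chr13:23738557-23738856, + strand: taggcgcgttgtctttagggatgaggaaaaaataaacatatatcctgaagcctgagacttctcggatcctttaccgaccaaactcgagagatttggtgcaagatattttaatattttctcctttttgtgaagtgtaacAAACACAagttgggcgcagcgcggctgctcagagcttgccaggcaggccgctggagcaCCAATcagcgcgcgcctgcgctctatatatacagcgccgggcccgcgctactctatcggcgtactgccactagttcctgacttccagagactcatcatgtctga
Hist1h2bb, chr13:23746484-23746783, + strand: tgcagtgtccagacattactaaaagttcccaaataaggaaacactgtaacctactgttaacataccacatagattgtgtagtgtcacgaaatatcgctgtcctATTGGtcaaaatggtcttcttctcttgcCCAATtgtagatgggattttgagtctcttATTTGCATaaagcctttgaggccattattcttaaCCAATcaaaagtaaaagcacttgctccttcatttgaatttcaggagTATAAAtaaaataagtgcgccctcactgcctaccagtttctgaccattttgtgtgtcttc
Of the members, 62 had a promoter in the RefSeq table, which holds 32851 promoters. CCAAT was present in all 6 H1, 18 H2A, 16 H2B and 10 H3 promoters, but in 25% of the 12 H4 promoters and 37.4% of all promoters. GGTCCG was found in 11 of the 12 H4 promoters (91.7%), in 1 H2B and 1 H3 promoter, and in 8.25% of all promoters. AAACACA was found in 5 of the 6 H1 promoters (83.3%) against 7.18% of all. The octamer was found in 38.9% of H2A and 43.8% of H2B promoters, in 0 of the H1, H3 and H4 promoters, and in 1.74% of all. TATAAA was present in 56.5% of the members' promoters and in 13.6% of all promoters. These matches describe letters only.

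Libraries held 2597505 to 3472716 fragments assigned to genes. The ribosomal RNA precursor Rn45s took 22.2 to 32.4% of them in GSK-J4 and 45.8 to 48.1% in LPS + GSK-J4, and the level of 3 counts was 0.673 to 1.24 CPM. Levels are given as CPM, a gene's counts relative to the library total scaled by edgeR's TMM factors. Of the microglia markers, Csf1r was at 747 to 767 CPM in GSK-J4 and 503 to 605 CPM in LPS + GSK-J4. The summed level of the 10 microglia markers was 3195 to 3281 CPM in GSK-J4 and 2514 to 2631 CPM in LPS + GSK-J4. In edgeR 2 of them, Cx3cr1 and Csf1r, fell, against 5.46% of all genes tested, and 3 fell by DESeq2. At an unadjusted edgeR p under 0.05, 7 were lower and 0 higher. The log2 fold changes of the 10 ran from −0.95 (Tmem119) to −0.18 (C1qb). The low-level markers P2ry12 and Tmem119, which define microglia in the intact brain, were at 7.42 to 15.3 CPM and 1.53 to 7.31 CPM.

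Transcripts of the clustered histone genes were mostly lower in LPS + GSK-J4 than in GSK-J4, by modest amounts. The fold change was negative in 36 of the 37 members tested, against 50% of all genes tested. Of these 37, 5 were under 10 counts in every LPS + GSK-J4 library and 0 in every GSK-J4 library. Only 16 had at least 10 counts in every library, 15 of them negative, and the rest fell short in LPS + GSK-J4 libraries alone. The filter thus kept many members through the group in which they were higher. Over all 58 members with counts, 47 were negative in edgeR without the filter and 48 in DESeq2, against 44.0% and 43.5% of all genes, and of the 21 outside the filter 11 and 12 were negative. The median log2 fold change of the 37 was −0.49, with quartiles of −0.93 and −0.32 and a range of −1.58 to 0.20, against a median of −0.00064 and quartiles of −0.29 and 0.35 over all genes tested. Few single genes passed the test, edgeR's quasi-likelihood test at an adjusted p of at most 0.01. In the lower direction 2 members passed, Hist2h4 and Hist1h4i, which is 5.41% of the members against 5.46% of all genes tested, so the share at this threshold was that of the background. With the threshold relaxed to 0.05, 10 members were lower (27%), against 9.91% of all genes. Of these 10, all but Hist1h4i and Hist1h1c had an LPS + GSK-J4 library under 10 counts and passed the filter through GSK-J4. At 0.05 DESeq2 gave 3 of 49 members, against 6.69% of all genes. For edgeR with at least 10 counts in every library it was 2 of 16, Hist1h4i and Hist1h1c, against 10.5%. None rose in edgeR, where 8.42% of all genes did, and 0 were higher at an unadjusted p under 0.05 in edgeR or in DESeq2, against 19.3% of all genes in edgeR. With a log2 fold change of at most −1.5 as well, Hist2h4 alone was called, against 0.809% of all genes, and 0 members were called at 1.5 or more, against 2.95%. Hist2h4 was 1 of the 5 members under 10 counts in every LPS + GSK-J4 library. It was not tested where at least 10 counts were required in every library.

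**Figure D1:**
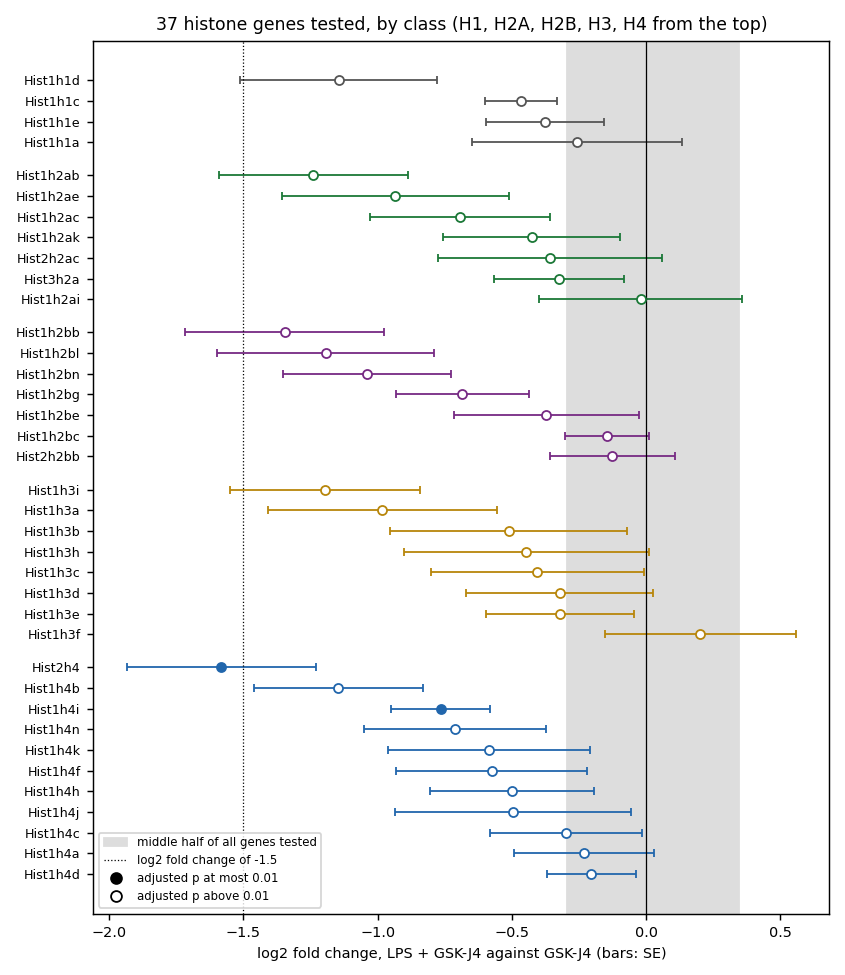
Log2 fold change of LPS + GSK-J4 against GSK-J4 (x axis) for the 37 histone genes tested, grouped by class and ordered within it, with SE bars; filled points have an adjusted p of at most 0.01, and the grey band spans the quartiles of all genes tested. All points but Hist1h3f, at 0.20, lie below 0, and Hist2h4 and Hist1h4i are filled.

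All members together took 2286, 2735 and 2196 counts in the GSK-J4 libraries, in the order of replicates 1 to 3 used throughout. They took 1232, 1149 and 1193 counts in the LPS + GSK-J4 libraries. Their summed level was 539, 614 and 805 CPM in GSK-J4, a mean of 653 ± 137 (SD, n = 3), and 481, 438 and 493 CPM in LPS + GSK-J4, a mean of 471 ± 28.5 (SD, n = 3). The groups did not overlap, and the log2 ratio of the means was −0.47. GSK-J4 replicate 3 stood above the other libraries, and it held the highest level of 25 of the 37 tested members, against 18.3% of all genes tested. Without GSK-J4 replicate 3, the median log2 fold change of the members was −0.26, and 31 of 37 were negative, against 49.0% of all genes. In that fit 0 members passed the edgeR test, where 4.19% of all genes fell. At an adjusted p of 0.05, 4 members were lower, against 8.12% of all genes. The log2 ratio of the sums without that replicate was −0.29. Bulk RNA cannot tell fewer cells that make a transcript from less of it per cell.

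Each class contributed to this sum, and the means of all 5 were lower in LPS + GSK-J4. H4 summed to 186, 200.4 and 301 CPM in GSK-J4 and 164, 155 and 164 CPM in LPS + GSK-J4. H1 summed to 145, 171 and 211 CPM against 129.6, 118 and 129 CPM. H2B summed to 111, 128 and 128 CPM against 96.4, 93.5 and 97.5 CPM. In these classes the groups did not overlap, and GSK-J4 replicate 3 was the highest library for H4 and H1 but not for H2B. H2A summed to 50.3, 56.1 and 77.7 CPM against 48.4, 34.0 and 49.6 CPM, also without overlap, though the lowest GSK-J4 and the highest LPS + GSK-J4 library nearly met. H3 summed to 47.2, 58.6 and 87.3 CPM against 42.5, 38.5 and 53.3 CPM, and its groups overlapped. The log2 ratios of the class means were −0.49 for H1, −0.48 for H2A, −0.35 for H2B, −0.52 for H3 and −0.51 for H4. The difference between classes was not tested.

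**Figure D2:**
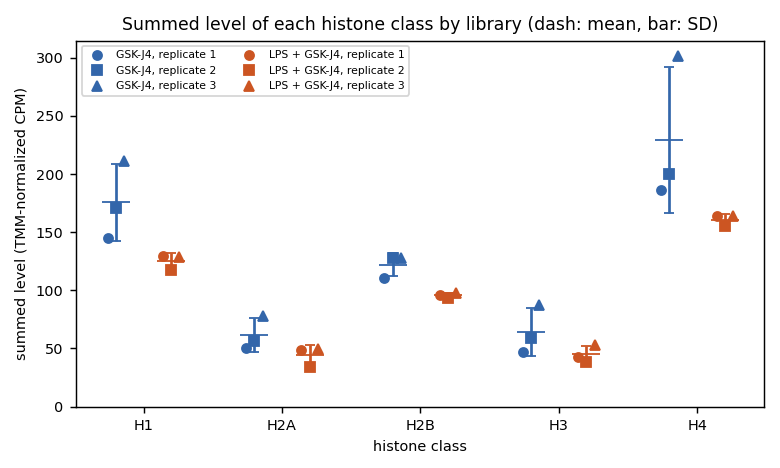
Summed level in TMM-normalized CPM (y axis) of each histone class (x axis) in the 3 GSK-J4 and 3 LPS + GSK-J4 libraries, with the mean (dash) and SD (bar) of each group and 1 marker shape per replicate. GSK-J4 replicate 3 is highest for H1, H2A, H3 and H4, and only for H3 do the groups overlap.

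H4, the partner of H3 in the nucleosome, held 32.7 to 37.4% of the members' counts and both members that passed. Hist2h4 lies on chromosome 3 at 96262934 to 96263317 and had 28, 30 and 23 counts in GSK-J4 and 5, 7 and 6 in LPS + GSK-J4. These are 6.61, 6.73 and 8.43 CPM against 1.95, 2.67 and 2.48 CPM. The groups were well apart, although the lower group was close to the limit of 3 counts. Hist2h4 thus passed the low-count filter only through GSK-J4, the group in which it was higher. The log2 fold change was −1.58 (SE 0.35, edgeR adjusted p = 0.0037). Its adjusted p was 0.00561 to 0.0167 with each library left out in turn, above 0.01 in 5 of the 6 fits, and 0.0233 by DESeq2.

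Hist1h4i, on chromosome 13 at 22040960 to 22041362, was an abundant H4 gene with 168, 197 and 167 counts in GSK-J4 and 78, 68 and 68 in LPS + GSK-J4. Its levels were 39.6, 44.2 and 61.2 CPM against 30.4, 25.9 and 28.1 CPM. Every GSK-J4 library was above every LPS + GSK-J4 library, and replicate 3 was again the highest. The log2 fold change was −0.76 (SE 0.18, edgeR adjusted p = 0.00651). DESeq2 gave an adjusted p of 0.0042, and with each library left out in turn it was 0.00384 to 0.0433, above 0.01 in 4 of the 6 fits. No member passed in edgeR without GSK-J4 replicate 2, GSK-J4 replicate 3 or LPS + GSK-J4 replicate 2. Of all genes, 3.46%, 4.19% and 2.99% fell in these fits. At an adjusted p of 0.05, 5 of 37, 4 of 37 and 3 of 40 members were lower there, against 6.35%, 8.12% and 6.32% of all genes. Without LPS + GSK-J4 replicate 3, 4 of 40 members passed, against 6.47% of all genes that fell.

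The H4 gene with the highest level had a smaller fold change and did not pass, and its difference from Hist1h4i was not tested. Hist1h4d had 53.8, 55.0 and 79.2 CPM in GSK-J4 and 51.9, 51.1 and 58.6 CPM in LPS + GSK-J4, with a log2 fold change of −0.20 (SE 0.17, edgeR adjusted p = 0.419). Hist1h4c had 18.9, 21.1 and 46.2 CPM against 24.2, 22.1 and 21.5 CPM. For both genes the groups overlapped, and in Hist1h4c a single library, GSK-J4 replicate 3, was far above the other 5. Without it the log2 fold change of Hist1h4c was 0.18 in place of −0.30. Hist1h4b, at −1.15 (SE 0.31, edgeR adjusted p = 0.0144), was the third H4 gene at or under 0.05, with 8.73, 12.8 and 8.80 CPM against 5.85, 4.58 and 3.30 CPM. All 11 H4 genes tested had negative fold changes. The only member of the Hist4 cluster, Hist4h4 on chromosome 6, was not tested, with 7, 9 and 7 counts in GSK-J4 and 0, 5 and 2 in LPS + GSK-J4.

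The linker histone genes were led by Hist1h1c, the member with the most counts. It lies on chromosome 13 at 23738807 to 23739531 and had 110.4, 127 and 147 CPM in GSK-J4 and 97.2, 87.0 and 93.3 CPM in LPS + GSK-J4. The groups did not overlap, and the log2 fold change of −0.47 (SE 0.13) had an edgeR adjusted p of 0.0194. Hist1h1d had 9.20, 9.88 and 16.1 CPM against 5.46, 2.29 and 7.85 CPM, also apart, at −1.15 (SE 0.37, edgeR adjusted p = 0.0331). Hist1h1e had 20.1, 26.5 and 36.7 CPM against 20.7, 22.5 and 19.8 CPM, and its groups overlapped. The testis linker histone gene Hist1h1t had 4 counts in all.

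H2A and H2B form a dimer in the nucleosome, and many of their genes lie side by side. Hist3h2a, the H2A gene with the highest level, had 15.6, 11.4 and 19.8 CPM in GSK-J4 and 12.9, 12.2 and 11.6 CPM in LPS + GSK-J4. Hist1h2ak had 6.13, 11.4 and 15.8 CPM against 9.76, 6.87 and 7.43 CPM. In both the groups overlapped. Hist1h2ab, by contrast, had 7.79, 8.53 and 11.4 CPM against 5.07, 1.91 and 4.54 CPM, with no overlap and a log2 fold change of −1.24 (SE 0.35, edgeR adjusted p = 0.0176). It was the only H2A gene at or under 0.05, and all 7 tested were negative.

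Among the 7 tested H2B genes, all negative, the member with the highest level differed little. Hist1h2bc had 45.3, 51.4 and 47.3 CPM in GSK-J4 and 37.9, 51.5 and 40.9 CPM in LPS + GSK-J4, a log2 fold change of −0.14 (SE 0.16, edgeR adjusted p = 0.56). Hist2h2bb had 14.4, 11.2 and 12.8 CPM against 11.7, 9.92 and 13.6 CPM. The GENCODE model of Hist1h2bc runs past the stop codon but lacks the stem-loop letters. Hist1h2bg had 12.3, 16.8 and 13.9 CPM against 10.9, 8.01 and 7.85 CPM, without overlap, but missed both thresholds at an adjusted p of 0.0562 in edgeR. The 3 H2B genes at or under 0.05 were of lower level. Hist1h2bb, whose promoter is shown above, had 8.02, 6.51 and 6.60 CPM against 4.29, 1.91 and 2.06 CPM. Its log2 fold change was −1.35, and those of Hist1h2bl and Hist1h2bn were −1.19 and −1.04. The Hist3 cluster added Hist3h2ba, with 4, 5 and 3 counts against 7, 3 and 6, and the pseudogene Hist3h2bb-ps, with 2, 0 and 1 against 1, 1 and 1. Neither was tested.

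H3 carries K27, the residue whose demethylation GSK-J4 blocks. Hist1h3e, the H3 gene with the highest level, had 18.6, 17.1 and 36.7 CPM in GSK-J4 and 18.0, 15.3 and 23.1 CPM in LPS + GSK-J4. Hist1h3d had 4.01, 6.06 and 5.87 CPM against 3.12, 4.58 and 4.96 CPM. Both overlapped, and without GSK-J4 replicate 3 the log2 fold change of Hist1h3e was 0.068 in place of −0.32. Hist1h3i had 5.66, 11.2 and 9.53 CPM against 4.29, 4.20 and 2.89 CPM, with no overlap, and its log2 fold change of −1.20 (SE 0.35) had an edgeR adjusted p of 0.0216. Of the 8 H3 genes tested, 7 were negative, and Hist1h3f, at 0.20 (SE 0.36), was the only tested member of any class with a positive fold change.

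**Figure D3:**
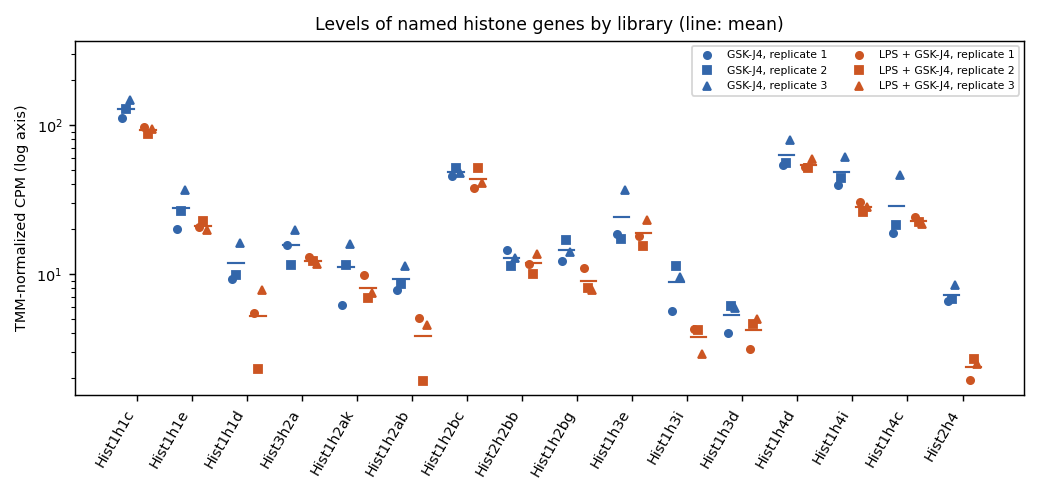
TMM-normalized CPM (y axis, log scale) of 16 histone genes (x axis) in each of the 6 libraries, with the group mean as a line and 1 marker shape per replicate. Hist2h4, Hist1h4i, Hist1h1c and Hist1h2ab show groups that do not overlap, whereas Hist1h2bc, Hist1h4d and Hist1h4c do overlap.

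Over all 37 tested members, every LPS + GSK-J4 library was below every GSK-J4 library in 14 (37.8%), against 18.4% of all genes tested, and above in 0, against 19.8%. These 14 were 2 H1, 2 H2A, 4 H2B, 2 H3 and 4 H4 genes. Of the 37, 16 had at least 10 counts in every library, and among the 14 only Hist1h1c, Hist1h4i and Hist1h2bg did. The others of the 14 had 1 or more LPS + GSK-J4 libraries under 10 counts and passed the low-count filter through GSK-J4. The share of 37.8% thus rests largely on members kept through the group in which they were higher. Of the tested members, 26 had the stem-loop in their model, with a median log2 fold change of −0.51 and 25 negative. The median was −0.52 in the 8 whose model ends at the stop codon, and −0.23 in the 3 that run past it without the motif, Hist1h1a, Hist1h2bc and Hist1h4a. For 24 other protein-coding genes tested, with a RefSeq span of at most 1000 bases, the median was 0.041, with 10 negative, and the difference from the members was not tested.

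Levels per length put linker and H4 genes first. Among the 63 members with a single RefSeq transcript, mean TMM-normalized CPM per kb was 152 for Hist1h1c, 145 for Hist1h4d, 94.9 for Hist1h4i, 68.4 for Hist1h4c, 53.7 for Hist1h4h and 31.2 for Hist1h1e. The ranges over the 6 libraries overlapped for every neighbouring pair in this order, from 120 to 203 CPM per kb for Hist1h1c and 127 to 197 for Hist1h4d down to 37.4 to 105 for Hist1h4h and 25.3 to 46.9 for Hist1h1e. These values understate genes with near-identical copies. STAR counts only fragments with a single place in the genome, and a median of 57.6% of the 101-base windows of a member's coding sequence also occurred in another gene. All windows were shared in 12 members, 9 of which were at 0 in all libraries. No window was shared in Hist2h4 or Hist1h4d, and 45% were in Hist1h4i. The 10 tested members with under 15% shared windows had a median log2 fold change of −0.37.

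By position, most counts came from the Hist1 cluster on chromosome 13. The stretch at 23531044 to 23764412 held 29 members, 23 of them tested, and 71.7 to 76.4% of the members' counts. Its summed level was 387, 446 and 583 CPM in GSK-J4 and 354, 335 and 365 CPM in LPS + GSK-J4. The stretch at 21715711 to 21837530, with 18 members, summed to 59.7, 76.1 and 93.5 CPM against 52.7, 40.8 and 54.5 CPM. Between them in position, the 5 members at 22035122 to 22043658, which include Hist1h4i, summed to 43.2, 48.3 and 68.9 CPM against 34.3, 29.4 and 32.2 CPM. The Hist2 cluster on chromosome 3, with 10 members, summed to 29.5, 28.1 and 35.6 CPM against 23.8, 16.8 and 24.8 CPM. In all 4 the groups did not overlap. The 3 members of the Hist3 cluster on chromosome 11 summed to 17.0, 12.6 and 21.3 CPM against 16.0, 13.7 and 14.5 CPM, with overlap. The members with counts that were not tested numbered 21, with 4 to 66 counts in all (median 30) and at most 7.70 CPM in a library.

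Genes for histone supply outside the clusters gave a mixed picture. Of 19 replacement variants, which are made outside S phase as well, 8 were tested and only H3f3b rose, against 8.42% of all genes tested. By edgeR and by DESeq2 0 fell, against 5.46% of all genes in edgeR. At an unadjusted edgeR p under 0.05, 2 were higher, H3f3b and H2afx, and 0 lower, where 19.3% of all genes were higher. H2afx, at a log2 fold change of 0.85 (SE 0.25, edgeR adjusted p = 0.0233), was higher without overlap but did not pass. H3f3b, a gene of the variant H3.3, had 340.5, 362 and 329.6 CPM in GSK-J4 and 597, 655 and 466 CPM in LPS + GSK-J4. Its log2 fold change was 0.74 (SE 0.13, edgeR adjusted p = 0.000466). The other gene of the same protein, H3f3a, had 114, 129.7 and 114 CPM against 128, 117 and 113 CPM, and the H2A.Z gene H2afz had 54.7, 60.4 and 79.9 CPM against 58.9, 56.5 and 66.9 CPM. Both overlapped, and the median log2 fold change of the 8 was −0.044.

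Of 35 factors of histone mRNA transcription, processing and decay, 32 were tested, with a median log2 fold change of −0.11. Over all genes tested in edgeR, 8.42% rose, 5.46% fell and 19.3% were higher at an unadjusted p under 0.05. In this list none rose by edgeR or DESeq2, with 0 higher at that unadjusted p in edgeR. In edgeR 7 were lower at an unadjusted p under 0.05, and 2 fell, Zcchc11, a uridylyltransferase, by 0.80 (SE 0.17, edgeR adjusted p = 0.00265) and Pou2f1, the octamer-binding factor Oct-1, by 0.65 (SE 0.16, edgeR adjusted p = 0.0073) on the log2 scale. Both passed by DESeq2, but neither did in edgeR without GSK-J4 replicate 2 or without LPS + GSK-J4 replicate 2, and 1 did without GSK-J4 replicate 1, GSK-J4 replicate 3 or LPS + GSK-J4 replicate 3. Slbp, the stem-loop binding protein, had 13.2, 14.8 and 16.5 CPM against 16.4, 17.9 and 7.85 CPM, and its groups overlapped. Npat, the coactivator of histone gene transcription, had 38.0, 28.7 and 27.5 CPM against 25.8, 23.3 and 16.9 CPM, without overlap, at an edgeR adjusted p of 0.0784. Slbp and Npat were chosen after their values were seen. The highest levels in this list were those of Smg1, Sympk and Papd4, and none of these passed.

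Histone chaperones, which carry new histones to DNA, went in both directions. Of 22 tested, 3 rose and 2 fell in edgeR, where 8.42% and 5.46% of all genes tested did. The 3 became 1 by DESeq2, and also without GSK-J4 replicate 1, 2 or 3 or without LPS + GSK-J4 replicate 2. Chaf1b, a subunit of CAF-1, had 5.43, 7.86 and 7.70 CPM in GSK-J4 and 16.8, 17.9 and 20.6 CPM in LPS + GSK-J4. The log2 fold changes were 1.40 for Chaf1b, 1.12 for the H3-H4 chaperone Asf1a and 0.89 for the H3.3 chaperone Daxx. Nasp, a chaperone of H1 and of H3-H4, had 42.9, 48.3 and 44.4 CPM against 19.1, 22.9 and 12.8 CPM, and fell by 1.30 (SE 0.20, edgeR adjusted p = 0.00015) on the log2 scale. Ubn1, a subunit of the HIRA complex, fell by 0.51. Set, Ubn1 and Rbbp4 had the highest levels in this list, and Set and Rbbp4 did not pass.

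Of 41 S phase and proliferation genes, 28 were tested, with a median log2 fold change of 0.22 and 11 negative. Here 2 rose and 0 fell in edgeR, as in DESeq2, where 8.42% and 5.46% of all genes tested did in edgeR. The unadjusted edgeR p was under 0.05 for 7 genes with a positive fold change and for 2 with a negative one. Over all genes tested, the share with a positive fold change at that p was 19.3%. Mki67, which codes for the proliferation marker Ki-67, had 11.6, 12.1 and 18.7 CPM in GSK-J4 and 49.2, 43.5 and 47.9 CPM in LPS + GSK-J4, a log2 fold change of 1.76 (SE 0.20). Pcna, the sliding clamp of DNA polymerases, had 59.5, 69.6 and 65.3 CPM against 130.4, 145 and 126 CPM. In both, all LPS + GSK-J4 libraries were higher, which is the opposite of the direction of the histone genes. Other S phase genes overlapped between the groups, among them Mcm2, a subunit of the replicative helicase, with 15.3, 20.7 and 13.6 CPM against 18.7, 15.3 and 12.8 CPM, and Top2a, a topoisomerase, with 10.6, 10.5 and 12.1 CPM against 14.4, 8.39 and 6.19 CPM. Mcm2 and Top2a were also chosen after their values were seen. Mcm6, next in level after Pcna and Mki67 in this list, had an edgeR adjusted p of 0.0888. With library totals alone as the scaling, the log2 fold changes of H3f3b, Chaf1b, Asf1a, Daxx and Pcna were 0.17, 0.84, 0.54, 0.32 and 0.48, with edgeR adjusted p above 0.01, and Mki67 alone of the genes named as risen passed.

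**Figure D4:**
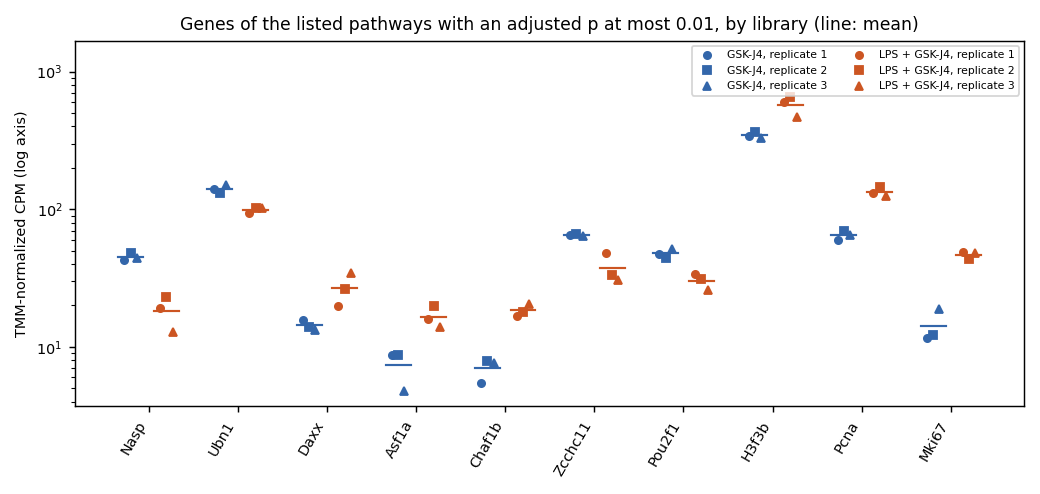
TMM-normalized CPM (y axis, log scale) in each of the 6 libraries for the 10 genes of the 4 lists of histone supply and S phase genes that had an adjusted p of at most 0.01 (x axis), with the group mean as a line. Nasp, Ubn1, Zcchc11 and Pou2f1 are lower and Daxx, Asf1a, Chaf1b, H3f3b, Pcna and Mki67 higher in LPS + GSK-J4, without overlap.

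Markers of other cell types moved with the comparison, in which 8.42% of all genes tested rose in edgeR. Of the astrocyte markers 3 of 7 tested rose, with summed levels of 53.9 to 59.4 CPM in GSK-J4 and 131 to 159 CPM in LPS + GSK-J4. Oligodendrocyte lineage markers rose in 5 of 8 tested, from 216 to 249.7 CPM to 394 to 448 CPM. Neuronal markers rose in 3 of 3 tested (2 by DESeq2), from 17.0 to 21.3 CPM to 39.7 to 51.5 CPM, with Rbfox3 and Syt1 at 0 in 1 or more LPS + GSK-J4 libraries and Snap25 at 0 in 2 GSK-J4 libraries. Fibroblast and vascular markers rose in 0 of 6 tested in edgeR, as in DESeq2, and 1 was higher at an unadjusted p under 0.05, with 81.5 to 282 CPM and 139 to 428 CPM, and Cldn5 was at 0 in all libraries. The part of these cells in the histone values was not tested. With Rn45s, Mir6236 and Lars2 removed from the table, 32 members were tested and 31 were negative. Of these 32, 2 fell, against 5.61% of all genes, and the median log2 fold change was −0.48.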

How the data were processed

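The 6 RNA-seq libraries of PM, 3 of GSK-J4 and 3 of LPS + GSK-J4, were grouped by their titles. The authors trimmed reads with Trimmomatic 0.33 and aligned them to mm10 with STAR 2.5.1, per the submitters' processing notes, and deposited raw counts of fragments per gene, without normalization, in 3 columns by strand. The gene annotation used for counting is not given in the sources used here. The reverse-strand column, which fits the directional kit, was used. The opposite strand held 0.966 to 1.38% of stranded counts and 11 to 22 counts per library on the histone genes.

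Counts of the whole table were tested with edgeR 4.0.16 under R 4.3.3, with limma 3.58.1 loaded. The steps were TMM factors, 1.05 to 1.31 in GSK-J4 and 0.821 to 0.832 in LPS + GSK-J4, filterByExpr (minimum count 10, minimum total 15) and a quasi-likelihood test between the groups, robust and without covariates, with Benjamini-Hochberg adjustment over 10133 genes. Rose and fell mean an adjusted p of at most 0.01, the study's p threshold. Its fold threshold is a log2 fold change of 1.5. The script was tested on simulated data. Errors are SD over 3 libraries, or SE of the fold change. Counting error alone allows up to 3 counts behind a 0.

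Values in every library are given for members with an adjusted p of at most 0.01, for the 3 members of each class with the highest mean CPM, and for Hist3 and Hist4 members with counts. Hist1h4b and Hist1h2bb were added after their values were seen. The members and lists were chosen with earlier results of these data known. Gene positions and promoters are from RefSeq (GRCm38.p6), matched by older symbol for all 68 members, and stem-loops and coding windows from GENCODE vM21. All are of the mm10 assembly. Alternatives were unstranded counts, other scalings, removal of Rn45s, Mir6236 and Lars2, DESeq2 1.42.0, other filters, a replicate block, an adjusted p of 0.05 and leaving out each library. Python 3.11.15, matplotlib 3.10.9, numpy 2.4.6 and pandas 2.3.3 served for tables and plots.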

Additional observations from a re-analysis of the deposited data

How the results depend on the processing

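Under the other scalings and with unstranded counts, 36 of 37, 37 of 38 or 31 of 32 members that passed the filter were negative. Apart from library totals alone, these settings shifted all genes by a median of under 0.01 on the log2 scale. They could thus hardly change a sign and do not test the direction. The filter also kept many members through the group in which they were higher. Of the 21 members with counts outside it, 11 were negative in edgeR without the filter and 12 in DESeq2. Library totals alone gave 37 of 37 negative, but shifted the median of all genes by −0.57 and that of the members to −1.03. With library totals alone, 24 of 37 members fell, against 33.2% of all genes, 9 of them past the fold threshold, against 3.49%, and the log2 ratio of the summed levels was −1.01. Of the other lists, 0 replacement variants rose and 4 fell, 16 mRNA factors fell, 0 chaperones rose and 8 fell, and 1 S phase gene rose and 5 fell. The DESeq2 Wald test gave 1 member that fell, against 4.66% of all genes, 0 past the fold threshold, and 1 chaperone that rose. Its adjusted p was NA for 19 members. Without a filter on low counts 9 of 58 members, against 4.76% of all genes, and 2 S phase genes fell. With at least 10 counts in every library, 16 members were tested, 1 fell, against 5.91% of all genes, and 0 were past the fold threshold. At an adjusted p of 0.05, 10 members fell, 2 replacement variants rose, 4 mRNA factors fell, 5 chaperones rose, and 4 S phase genes rose and 2 fell. Over all genes tested, 9.91% fell and 13.7% rose at 0.05.

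The replicate numbers were not taken to pair the samples, since deviations of same-numbered libraries correlated at −0.00872, 0.124 and 0.305, and GSK-J4 replicates 1 and 2 and LPS + GSK-J4 replicate 1 each correlated better with another number. With a replicate block, 9 of 37 members, against 10.0% of all genes, and 4 mRNA factors fell, 6 chaperones rose and 2 S phase genes fell.

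With each library left out in turn, 0 to 4 members fell and 0 to 3 were past the fold threshold, 0 to 3 mRNA factors fell (0 without GSK-J4 replicate 2 or LPS + GSK-J4 replicate 2), 1 to 3 chaperones rose and 1 to 2 fell, 0 to 1 S phase genes fell, and the log2 ratio of the summed levels was −0.60 to −0.29. Of all genes, 2.99 to 6.47% fell in these fits, and 0.751 to 0.953% fell past the fold threshold. Without GSK-J4 replicate 3 the log2 fold changes of Hist1h3e and Hist1h4c turned to 0.068 and 0.18, and over the 6 fits they ranged from −0.53 to 0.068 and from −0.54 to 0.18. Of the other values for named members, 201 kept their direction and side of the threshold, 22 passed it newly and 10 no longer did. Where the values moved, the cause was not tested, apart from the fewer genes or libraries that some alternatives hold. Depth left 21 members with counts untested.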
